A study of Homo sapiens with 8 samples.

Results

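Axon guidance genes encode the secreted and membrane-bound cues that steer growing axons and migrating neural crest cells, and the receptors that read them. Here they are the 72 genes of the semaphorin, plexin, neuropilin, ephrin, EPH receptor, SLIT, ROBO, netrin and UNC5 families, with DCC and DRAXIN, picked by a rule on the gene symbol, with earlier results of these data known, among the 47591 entries of the expression table. They comprised 38 ligands and 34 receptors. RNA was profiled in 3 lines of SH-SY5Y, a human neuroblastoma line of neural crest origin. The G2 line (n = 3 libraries) carried CRISPR/Cas9 and a guide against PRPF40B, a splicing factor. The scramble line (SCR, n = 3) had gone through the same procedure with a control guide, and the WT line (n = 2) was not edited. Edited cells were selected with puromycin and grown from single colonies, so that each edited line is a clone and a difference between lines cannot be told apart from a difference between clones. WT also differed from SCR and G2 in not having been edited or selected. The p-values measure the spread between the libraries of a line.

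Values are normalized counts, that is, read counts divided by a size factor of the library. Recovered totals ran from 59804395 to 81080747 per library. The 2 WT libraries stood apart in the share of ribosomal RNA genes (4.75% and 4.96%, against 0.384% to 0.587% in the other 6), and its part in the results was not tested. PRPF40B itself was at 840.2, 841 and 918 in the G2 libraries, 1686, 1672 and 1669.5 in SCR and 1972 and 1668 in WT, so that G2 lay below both controls (G2/SCR log2 fold change -0.95, SE 0.08). Markers of adrenergic neuroblastoma, the sympathetic state of these cells, were lower in G2 than in both controls (8 of 10 called in each G2 comparison, summed level 98204 to 108160 in G2, 192730 to 208040 in SCR and 213200 to 226580 in WT). TH was low in every line, at 5.65, 0 and 0 in G2, 26.5, 5.63 and 9.83 in SCR and 19.9 and 13.9 in WT. Of the 10 mesenchymal neuroblastoma markers, 9 were tested and 8 were higher in G2 in each comparison, with a summed level of 238460 to 243510 in G2, 110620 to 117950 in SCR and 80389 to 92658 in WT, while FN1 was at 0 in 7 of 8 libraries. Most of that sum was VIM, at a mean of 214430 in G2, 85197 in SCR and 59181 in WT. TWIST1 was instead lower in G2, at a mean of 21105 against 27740 in SCR and 26687 in WT, and was not called. Most of these markers differed between the same lines as the guidance genes described here, and the part of the markers in the results was not tested. The summed levels of 6 leukocyte markers (at most 41.9, CD3E at 0 in every library), 5 endothelial markers (at most 63.0, PECAM1 at 0 in every library) and 5 epithelial markers (118 to 196) were low in all lines. Among the 6 Schwann lineage markers, which summed to between 169.7 and 595, SOX10 was at 0 in every library. In bulk RNA, fewer cells of a type and less RNA per cell cannot be told apart.

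The families work as matched sets. Class 3 semaphorins are secreted and bind neuropilins, which pass the signal on through plexins, while most other semaphorins bind plexins directly. Ephrins are membrane-bound and signal on contact through EPH receptor kinases, SLIT proteins repel axons through ROBO receptors, and netrins attract through DCC and repel through UNC5 receptors. Sympathetic neurons and their neural crest precursors use several of these systems to find their routes.

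The starts of 6 of these genes are shown because their transcripts carry the main contrasts described below. SEMA3D and SLIT2 rose in G2, UNC5A and EFNB2 fell, and EFNA4 and EFNA3 lie side by side on chromosome 1 but differed in G2/SCR, where EFNA4 alone was called, while both were called higher in G2/WT. Each window holds 250 bases before to 50 bases after the start annotated by RefSeq on GRCh38.p14, read 5′ to 3′ on the strand of the gene, with capitals marking GC boxes (GGGCGG or its complement), the E-box CAGGTG and the TATA box TATAAA, searched on both strands.
SEMA3D (chr7:85187007-85187306, minus strand): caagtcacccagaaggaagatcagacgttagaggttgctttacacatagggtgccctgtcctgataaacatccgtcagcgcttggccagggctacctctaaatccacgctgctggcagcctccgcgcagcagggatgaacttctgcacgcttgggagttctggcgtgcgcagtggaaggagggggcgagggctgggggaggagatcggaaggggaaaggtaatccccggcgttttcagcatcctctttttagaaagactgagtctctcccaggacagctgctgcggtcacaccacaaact
SLIT2 (chr4:20251655-20251954, plus strand): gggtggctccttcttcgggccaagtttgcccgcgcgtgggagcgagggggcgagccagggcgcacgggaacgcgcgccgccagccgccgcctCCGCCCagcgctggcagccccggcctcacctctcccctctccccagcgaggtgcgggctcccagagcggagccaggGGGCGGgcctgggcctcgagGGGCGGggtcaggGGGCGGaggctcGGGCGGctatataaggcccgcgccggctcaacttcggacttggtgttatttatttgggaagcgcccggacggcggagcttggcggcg
UNC5A (chr5:176810309-176810608, plus strand): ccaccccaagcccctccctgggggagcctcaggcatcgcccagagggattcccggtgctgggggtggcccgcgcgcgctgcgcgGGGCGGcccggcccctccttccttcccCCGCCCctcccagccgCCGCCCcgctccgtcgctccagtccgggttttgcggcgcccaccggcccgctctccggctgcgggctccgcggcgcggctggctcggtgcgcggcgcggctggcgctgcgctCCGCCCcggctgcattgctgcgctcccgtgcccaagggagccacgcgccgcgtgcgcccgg
EFNB2 (chr13:106535613-106535912, minus strand): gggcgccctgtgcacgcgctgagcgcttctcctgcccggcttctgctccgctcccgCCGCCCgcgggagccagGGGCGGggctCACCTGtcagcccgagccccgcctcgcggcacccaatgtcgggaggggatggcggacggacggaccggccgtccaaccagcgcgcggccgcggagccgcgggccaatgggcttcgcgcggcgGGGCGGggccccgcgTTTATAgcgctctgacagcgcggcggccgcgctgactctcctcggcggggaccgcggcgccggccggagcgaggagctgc
EFNA4 (chr1:155063490-155063789, plus strand): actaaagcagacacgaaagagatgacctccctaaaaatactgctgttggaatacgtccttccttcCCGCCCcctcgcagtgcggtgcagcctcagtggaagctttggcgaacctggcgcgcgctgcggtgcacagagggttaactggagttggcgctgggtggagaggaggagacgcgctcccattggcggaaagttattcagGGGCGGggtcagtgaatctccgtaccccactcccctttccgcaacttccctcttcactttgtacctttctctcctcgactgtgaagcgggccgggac
EFNA3 (chr1:155078587-155078886, plus strand): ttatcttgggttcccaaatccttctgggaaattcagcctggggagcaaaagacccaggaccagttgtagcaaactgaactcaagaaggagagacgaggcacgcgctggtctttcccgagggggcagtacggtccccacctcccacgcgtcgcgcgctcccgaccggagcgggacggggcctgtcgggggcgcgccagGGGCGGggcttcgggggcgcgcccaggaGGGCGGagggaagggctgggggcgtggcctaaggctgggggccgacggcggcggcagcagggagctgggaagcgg

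SEMA3D held none of the motifs searched, SLIT2 held 5 GC boxes, UNC5A held 4, EFNB2 held 3 with 1 E-box and 1 TATA box, and EFNA4 and EFNA3 held 2 GC boxes each. The SEMA3D window lies inside the entry counted here, whose 5′ end is at chr7:85250243, so it is not the start of the gene as counted. The other windows shown lie at the start of their entries. Of the 72 genes, 61 had at least 1 window, 95 windows in all. A GC box stood in 69 of these 95 (72.6%), against 45% of all 35116 windows, and the median GC content was 65.7% against 58.7%. The E-box stood in 17 of the 95 (17.9%, against 20.6% of all windows), and the AP-1 motif TGANTCA in 1 (1.05%, against 7.71%). The CRE motif TGACGTCA was found in 3.16% of the 95 windows, the TEAD motif GGAATG in 10.5% and the TATA box in 3.16%, against 1.85%, 14.0% and 11.5% of all windows. The 24 windows of genes higher in G2 than in both controls had a median GC content of 67.2%, and the 9 windows of genes that were lower had 78.7%. These are medians over windows and not over genes. Some genes, such as SEMA6D and EPHB2, entered with several windows, and SEMA3A, NRP1, UNC5D and EPHA10 had none.

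Of the 72 guidance genes, 64 averaged 10 or more across the libraries and were tested among 18947 genes with limma. EPHA1, EPHA3, EPHA4, EPHA5 and EPHA7 were listed at 0 in every library, ROBO4 and NTN1 did not exceed the floor of 9 recovered counts in any library, and SEMA3E ran from 0 to 12.04. A gene was called where its fold reached 1.5 with p (unadjusted, limma) no higher than 0.05. In G2/SCR, 35 of the 64 were called, 22 higher (15.1% of all genes tested) and 13 lower (11.8%), against 26.9% of all genes tested in either direction. In G2/WT, 40 were called, 29 higher (17.7% of all genes) and 11 lower (12.2%), against 29.9%. The control comparison SCR/WT called 23, 18 higher (10.7%) and 5 lower (5.63%), against 16.3%. With libraries scaled to the same total these became 26 higher and 1 lower, and the median of all genes in SCR/WT moved to 0.29 on the log2 scale. With p adjusted by Benjamini-Hochberg in place of the unadjusted p, 35, 39 and 21 were called, against 25%, 28.2% and 13.8% of all genes. By direction these were 22 higher and 13 lower in G2/SCR (14.3% and 10.7% of all genes), 29 and 10 in G2/WT (16.9% and 11.3%) and 18 and 3 in SCR/WT (8.95% and 4.83%).

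The median log2 fold change of the 64 was 0.15 in G2/SCR, 0.49 in G2/WT and 0.20 in SCR/WT, against -0.01, 0.00 and 0.01 over all genes tested. Their median absolute log2 fold change was 0.77, 0.93 and 0.43, against 0.35, 0.41 and 0.29. By role, of the 36 ligands tested 12 were higher and 6 lower in G2/SCR (against 15.1% and 11.8% of all genes), 16 and 6 in G2/WT (17.7% and 12.2%) and 11 and 3 in SCR/WT (10.7% and 5.63%). Of the 28 receptors tested, 10 were higher and 7 lower in G2/SCR, against the same shares. For G2/WT the receptor counts were 13 and 5, and for SCR/WT 7 and 2.

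For 27 of the 64 the G2/SCR and G2/WT calls pointed the same way, 19 higher and 8 lower, against 17.7% of all genes tested (11.3% and 6.43%). Of these, 18 were not called in SCR/WT (12 higher and 6 lower, against 13.8% of all genes, 8.13% and 5.63% by direction), and 9 were called the same way in all 3 comparisons, so that SCR lay between WT and G2 (7 higher and 2 lower, against 2.81%, or 2.44% and 0.369%). With adjusted p, 19 were called in both G2 comparisons and not in SCR/WT (12 higher and 7 lower, against 13.4%, or 8.12% and 5.24%). The 9 genes in steps were SEMA3A, SEMA3D, SEMA7A, DRAXIN, NRP1, PLXNA4 and EPHA2, which rose from WT to SCR to G2, and UNC5A and EPHA8, which fell. The SCR/WT call of SEMA3D was lost when only SCR and WT were fitted, and those of UNC5A and EPHA8 when libraries were scaled to the same total. That of EPHA8 was also lost with adjusted p (0.089, limma) and without any 1 of the SCR or WT libraries. That of SEMA7A was lost without SCR replicate 1. For 40 of the 64, every G2 library was above (29) or below (11) all 5 control libraries, against 42.5% of all genes (22.8% and 19.7%).

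**Figure D1:**
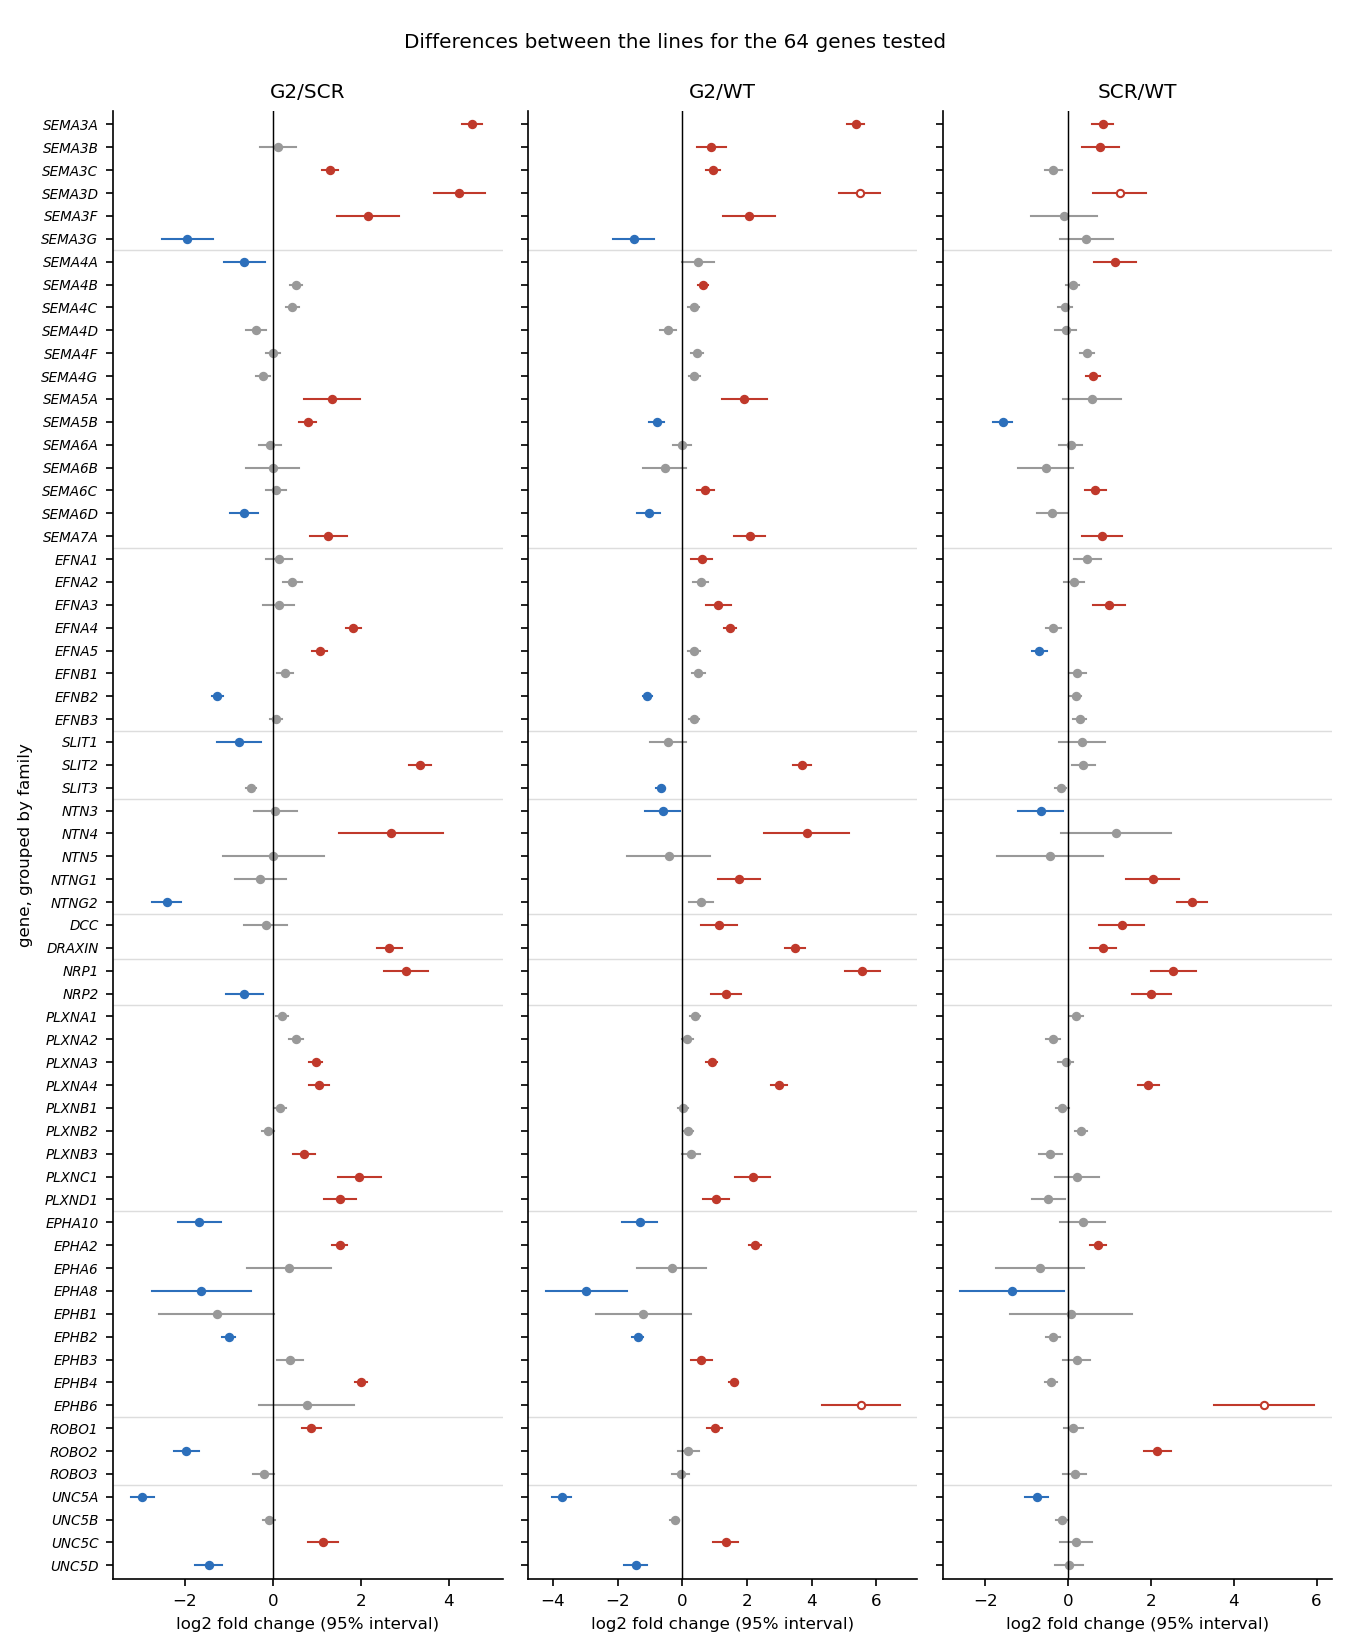
Log2 fold changes with 95% intervals (limma) of the 64 guidance genes tested, 1 row per gene grouped by family, in G2/SCR, G2/WT and SCR/WT. Red marks genes called higher, blue genes called lower and grey genes not called, and open points mark values against a group at the floor (SEMA3D and EPHB6 in WT), whose size depends on the pseudocount; 35, 40 and 23 points are coloured in the 3 panels.

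In G2/SCR the highest log2 fold changes of the 64 were those of SEMA3A and SEMA3D, both class 3 semaphorins. Of the 7 genes of that class, 6 were tested, 4 rose in both G2 comparisons (SEMA3A, SEMA3D, SEMA3F and SEMA3C) and 1 fell (SEMA3G). Of all genes tested, 11.3% rose and 6.43% fell in both. SEMA3A, a repellent of sensory and sympathetic axons, was at 3123, 2917 and 2825 in the G2 libraries, 134, 126 and 122 in SCR and 77.0 and 65.5 in WT. The lowest G2 library was far above the highest control library, and the SCR libraries were all above those of WT. This was a fold of 23.1 over SCR (log2 fold change 4.53, SE 0.10, adjusted p = 1.9e-11), and G2/WT was 5.36 (SE 0.11, adjusted p = 8.9e-12). SCR/WT was 0.83 (SE 0.11, adjusted p = 0.00021).

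SEMA3D, a secreted semaphorin of neural crest and heart development, followed the same order, with 369.8, 348 and 313 in G2, 18.4, 16.0 and 17.4 in SCR and 4.97 and 8.94 in WT. The groups did not overlap, and both WT libraries were at the floor of 9 recovered counts, about 3 fragments. G2/SCR was 4.24 on the log2 scale (SE 0.26, adjusted p = 7.5e-08). Against that floor, G2 was at least 34.2-fold higher than WT and SCR at least 1.71-fold higher.

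SEMA3F, whose product binds NRP2, was at 239.9, 141 and 262 in G2, 45.9, 38.5 and 52.9 in SCR and 31.04 and 76.4 in WT. It rose by 2.17 in G2/SCR (SE 0.32, adjusted p = 0.00015) and by 2.06 in G2/WT (SE 0.36, adjusted p = 0.00048) on the log2 scale, while the 2 controls overlapped. SEMA3C, which can attract as well as repel, had the highest level per length of the family in each line, at 2275 normalized counts per kb of exon in G2, 919 in SCR and 1192 in WT. Its libraries were at 14432, 13690.5 and 13509 in G2, 5474, 5674 and 5675 in SCR and 6260.4 and 8283 in WT (log2 fold change in G2/SCR 1.31, SE 0.08, adjusted p = 9.8e-08, and in G2/WT 0.95, SE 0.09, adjusted p = 4.9e-06). Per kb, SEMA3A made up 0.618% of the family in WT, 1.38% in SCR and 11.8% in G2. SEMA3G, an NRP2 ligand with a mean under 100, went the other way, from 18.3 to 34.8 in G2 against 93.7 to 117 in SCR and 69.5 to 86.4 in WT. SEMA3B was called in G2/WT and SCR/WT, with 145.6 to 205 in G2, 139 to 189 in SCR and 80.4 to 111 in WT.

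**Figure D2:**
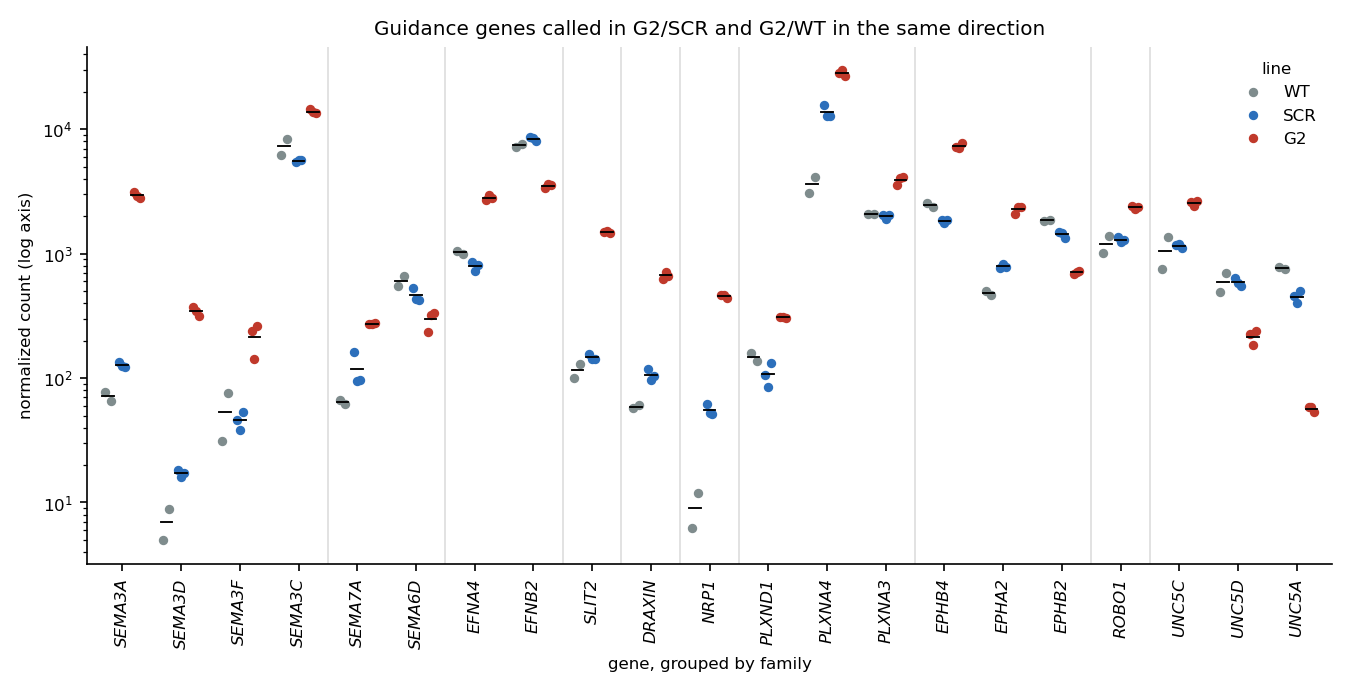
Normalized count per library (log axis) of the 21 guidance genes with a mean of at least 100 that were called with the same sign in G2/SCR and in G2/WT, grouped by family, with a point per library, coloured by line, and a bar at the mean of the line. The G2 points lie beyond all 5 control points for each of the 21 genes, above them for 16 and below them for SEMA6D, EFNB2, EPHB2, UNC5D and UNC5A.

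SEMA3C, SEMA3E, SEMA3A and SEMA3D lie within a stretch of chromosome 7, with 4.07 Mb between the end of SEMA3C and the start of SEMA3D (hg38, chr7:80742538-80922389, SEMA3A at chr7:83955777-84194994, SEMA3D at chr7:84995553-85250243). Genes between them were looked up after their values were seen. HGF, the ligand of the MET receptor, went from a mean of 176 ± 14.9 (SD, n = 3) in SCR to 7096 ± 114 (n = 3) in G2, and was at the floor in WT (6.21 and 2.98), so that SCR was above WT as well, with G2/SCR at 5.33 on the log2 scale. CACNA2D1, a calcium channel subunit, was higher in G2/SCR by 0.97 and PCLO, a protein of the presynaptic active zone, was lower (log2 fold change -1.01). So the stretch held called genes of both directions, and beyond SEMA3D, up to 4 Mb from SEMA3A, genes averaging at least 100 had log2 fold changes from -1.67 (RUNDC3B) to 0.54 (ABCB4).

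**Figure D3:**
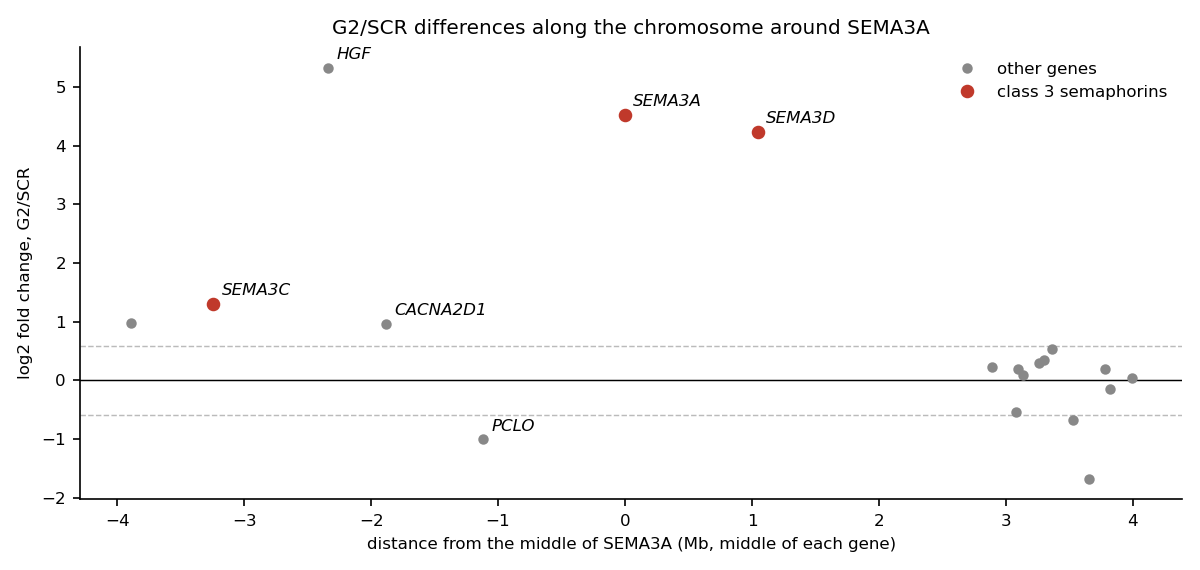
Log2 fold change in G2/SCR of genes averaging at least 100 whose middle lies within 4 Mb of the middle of SEMA3A, against that distance in Mb, with class 3 semaphorins in red, other genes in grey and dashed lines at a fold of 1.5. SEMA3A (4.53), SEMA3D (4.24), HGF (5.33), SEMA3C (1.31), GNAI1 (0.98) and CACNA2D1 (0.97) stand above the dashed lines and PCLO (-1.01), ABCB1 (-0.68) and RUNDC3B (-1.67) below them.

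Among the other 13 semaphorins, which are mostly membrane-bound, all were tested and 2 rose (SEMA7A and SEMA5A) and 1 fell (SEMA6D) in both G2 comparisons, against 11.3% and 6.43% of all genes, shares near those of the 13. SEMA7A, a GPI-anchored semaphorin that binds integrins and PLXNC1, was at 274, 270.5 and 279 in G2, 161, 94.8 and 96.7 in SCR and 67.0 and 61.6 in WT. The groups did not overlap, and SCR replicate 1 was nearest to G2. On the log2 scale G2/SCR was 1.26 (SE 0.20, adjusted p = 0.0002), 2.08 in G2/WT (SE 0.22, adjusted p = 8e-06) and 0.82 in SCR/WT (SE 0.22, adjusted p = 0.013), the last of which was 0.57 and not called without SCR replicate 1. SEMA6D, a transmembrane ligand of A-type plexins, was at 234, 322 and 334 in G2, 532, 433 and 425 in SCR and 551 and 656 in WT. It fell by 0.65 in G2/SCR (SE 0.15, adjusted p = 0.003) and by 1.03 in G2/WT (SE 0.16, adjusted p = 0.00022) on the log2 scale. The G2/SCR call was lost without G2 replicate 1 (-0.49) or without SCR replicate 1 (-0.55).

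SEMA5B, a transmembrane semaphorin with thrombospondin repeats, placed SCR apart from both other lines, at 839, 667 and 778 in SCR, 1239, 1275 and 1429 in G2 and 2311 and 2232 in WT. None of the 3 groups overlapped, with SCR the lowest, and SEMA5B differed by 0.79 in G2/SCR (SE 0.09, adjusted p = 1.8e-05), -0.79 in G2/WT (SE 0.10, adjusted p = 4.5e-05) and -1.58 in SCR/WT (SE 0.10, adjusted p = 8e-07). SEMA4C, a class 4 semaphorin that binds PLXNB2, had the highest level per length among these 13, at 393 per kb in G2, 289 in SCR and 306 in WT, and was called in no comparison (G2/SCR log2 fold change 0.44, 95% interval 0.30 to 0.59). Among the rest, SEMA6C was called higher in G2/WT and SCR/WT, SEMA4B in G2/WT and SEMA4G in SCR/WT, and SEMA4D, SEMA4F, SEMA6A and SEMA6B in none.

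The receptors of class 3 semaphorins rose with their ligands in part. NRP1, the neuropilin that binds SEMA3A, was at 469.5, 466 and 438 in G2, 62.3, 52.6 and 51.4 in SCR and 6.21 and 11.9 in WT. The 3 lines were separate, with WT close to the floor. On the log2 scale, the difference was 3.03 in G2/SCR (SE 0.23, adjusted p = 3.6e-07), 5.57 in G2/WT (SE 0.25, adjusted p = 4.8e-09) and 2.54 in SCR/WT (SE 0.25, adjusted p = 1.9e-05). NRP2, a receptor of SEMA3F and SEMA3C, was highest in SCR, at 119 to 160.2 against 78.8 to 104 in G2 and 33.5 to 35.7 in WT, and was called lower in G2/SCR and higher in G2/WT, the first of which was lost without G2 replicate 2 or SCR replicate 3. Per kb of exon, NRP1 made up 23.99% of the neuropilins in WT, 31.9% in SCR and 85.9% in G2.

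All 9 plexins were tested. PLXNA4, PLXNA3, PLXND1 and PLXNC1 rose in both G2 comparisons, PLXNB3 rose in G2/SCR, and no plexin was called lower. Of all genes tested, 11.3% rose and 6.43% fell in both G2 comparisons, and 15.1% rose in G2/SCR. The lack of falls among 9 genes was thus near the background share. PLXNA4, a co-receptor of neuropilins for SEMA3A, was at 28112, 29686 and 26989 in G2, 15600.2, 12792 and 12864 in SCR and 3087 and 4128 in WT. Its lines rose in steps without overlap, and the log2 fold change was 1.94 in SCR/WT (SE 0.11, adjusted p = 3.7e-07) and 1.04 in G2/SCR (SE 0.10, adjusted p = 4.2e-06). Its share of the plexins per kb went from 6.84% in WT to 20.7% in SCR and 32.1% in G2. PLXNA3, another neuropilin partner, was at 3552, 4023 and 4150.0 in G2, 2034, 1883 and 2062 in SCR and 2071 and 2095 in WT, with log2 fold changes of 0.97 in G2/SCR (SE 0.07, adjusted p = 2.8e-07) and 0.90 in G2/WT (SE 0.08, adjusted p = 1.5e-06).

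PLXND1, the receptor of SEMA3E, was at 308, 308 and 305 in G2, 105, 84.5 and 133 in SCR and 159 and 138 in WT. It rose by 1.53 on the log2 scale in G2/SCR (SE 0.16, adjusted p = 9.3e-06) and 1.05 in G2/WT (SE 0.18, adjusted p = 0.00048). PLXNC1, the receptor of SEMA7A, ranged from 169 to 185 in G2 and from 31.04 to 49.9 in the 5 control libraries. PLXNB2, a receptor of class 4 semaphorins, was the plexin with the highest mean per kb over all libraries, at 8287, 8921 and 9345 in G2, 9639, 9343 and 9814 in SCR and 8217 and 7368 in WT, and was not called (G2/SCR -0.12, 95% interval -0.25 to 0.02). PLXNA1, PLXNA2 and PLXNB1 were not called in any comparison either.

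**Figure D4:**
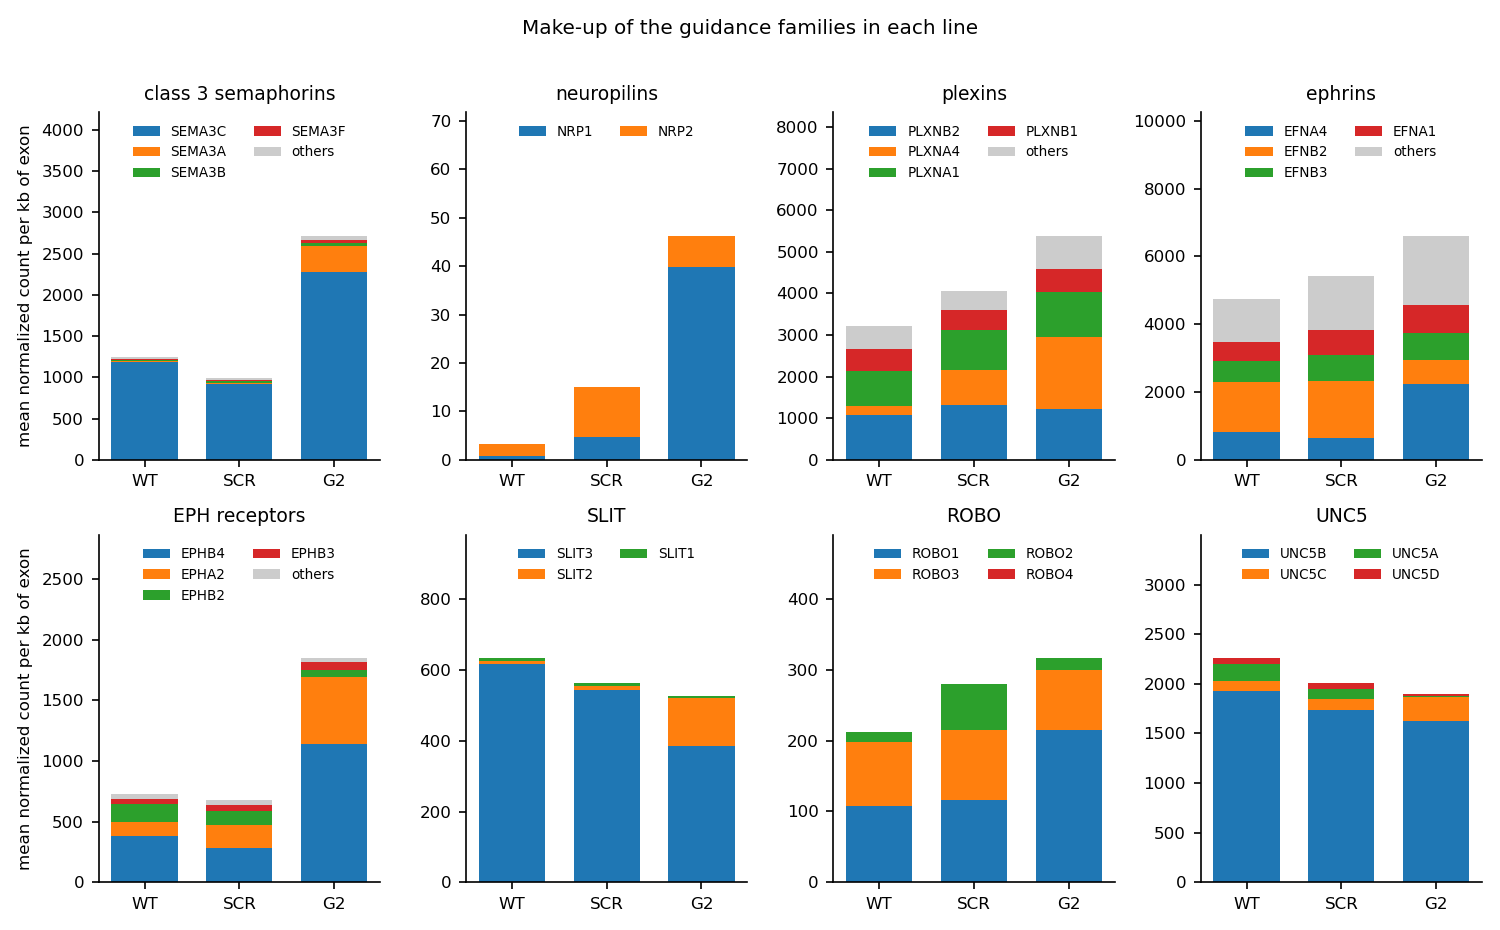
Mean normalized count per kb of exon of 8 guidance families in WT, SCR and G2, stacked by gene for the 4 genes with the highest mean and the others together, each panel with its own axis from 0. Class 3 semaphorins, neuropilins, plexins, ephrins, EPH receptors and ROBO sum to more in G2 than in either control, and SLIT and UNC5 to less. NRP1, PLXNA4, SLIT2, EFNA4 and EPHB4 take a larger part of their family in G2.

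The ephrins followed. The summed level per kb was 6609 ± 144 (SD, n = 3) in G2, 5420 ± 144 (n = 3) in SCR and 4755 ± 258 (n = 2) in WT, and in both G2 comparisons 1 of the 8 rose (EFNA4) and 1 fell (EFNB2), against 11.3% and 6.43% of all genes, shares near those of the 8. EFNA4, a GPI-anchored ligand of EPHA receptors, was at 2714, 2962 and 2802 in G2, 855, 728 and 807 in SCR and 1042 and 1003 in WT. All G2 libraries were above all controls, with log2 fold changes of 1.83 in G2/SCR (SE 0.08, adjusted p = 2e-09) and 1.47 in G2/WT (SE 0.08, adjusted p = 4.1e-08). EFNB2, a transmembrane ephrin and the main ligand of EPHB4, was at 3349.7, 3609 and 3559 in G2, 8619.6, 8501 and 8112 in SCR and 7208 and 7664 in WT. It fell by 1.26 in G2/SCR (SE 0.06, adjusted p = 3.1e-09) and by 1.08 in G2/WT (SE 0.06, adjusted p = 3.6e-08) on the log2 scale. EFNB2 made up 31.2% of the ephrins per kb in WT, 31.01% in SCR and 10.6% in G2, and EFNA4 17.1%, 11.7% and 34.0%.

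EFNA4, EFNA3 and EFNA1 follow each other on chromosome 1, with 9.28 kb between EFNA4 and EFNA3 and 39.9 kb between EFNA3 and EFNA1. EFNA3 was at 1515, 1181 and 1426 in G2, 1226, 1202 and 1318 in SCR and 829 and 479 in WT, so that G2 and SCR overlapped (log2 fold change 0.13, 95% interval -0.22 to 0.49). EFNA1 overlapped between G2 and SCR too (0.14, 95% interval -0.15 to 0.43), and both genes were called higher in G2/WT, EFNA1 no longer without G2 replicate 2, G2 replicate 3 or WT replicate 2. The start sequences of EFNA4 and EFNA3 printed above each held 2 GC boxes. EFNA5, a GPI-anchored ephrin, was lowest in SCR, at 729 to 802 against 1485 to 1694 in G2 and 1207 to 1286 in WT. EFNA2, EFNB1 and EFNB3 were called in no comparison.

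Of the 14 EPH receptors, 9 were tested. EPHB4 and EPHA2 rose and EPHB2, EPHA10 and EPHA8 fell in both G2 comparisons, where 11.3% of all genes tested rose and 6.43% fell. EPHB4, the receptor of EFNB2, was at 7198, 7128 and 7759 in G2, 1882, 1767 and 1854 in SCR and 2535 and 2374 in WT. All G2 libraries were above all controls, with log2 fold changes of 2.00 in G2/SCR (SE 0.06, adjusted p = 1.4e-10) and 1.58 in G2/WT (SE 0.07, adjusted p = 2.6e-09). The entry of VGF, a secreted neuropeptide precursor, spans EPHB4 in the annotation used. Its mean was 56331 ± 11466 (SD, n = 3) in G2, 20028 ± 1898 (n = 3) in SCR and 37731 ± 3935 (n = 2) in WT, and since the strand setting of the counting is not given in the sources used here, reads shared by the 2 entries were not tested. Other called genes overlapped expressed entries too. The highest mean of such an entry was 1915 at EPHA2, 321.6 at PLXNC1, 368.9 at UNC5C, 2391 at PLXNA3, 4179 at EPHB3 and 5625 at SEMA4G. Shared reads were not tested there either. EPHA2, an EPHA receptor of migrating and epithelial cells, was at 2098, 2373 and 2359 in G2, 773, 826 and 782 in SCR and 498 and 468 in WT. It rose in steps, by 0.72 in SCR/WT (SE 0.08, adjusted p = 6.8e-05) and by 1.52 in G2/SCR (SE 0.08, adjusted p = 1e-08) on the log2 scale.

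EPHB2, a receptor of B-type ephrins in commissural axons, went the other way, at 691, 714 and 729 in G2, 1496, 1457 and 1332 in SCR and 1826 and 1871 in WT. It fell by 1.00 in G2/SCR (SE 0.07, adjusted p = 2.1e-07) and by 1.38 in G2/WT (SE 0.08, adjusted p = 3.8e-08). EPHA10, a receptor that lacks kinase activity, had 30.7 to 49.4 in G2 and 86.9 to 139 in the control libraries. EPHA8 had 3.22 to 21.9 in G2, 28.7 to 33.7 in SCR and 79.4 and 80.7 in WT, and its SCR/WT call was lost without any 1 of the SCR or WT libraries. EPHB6, another receptor without kinase activity, was at the floor in WT (3.72 and 0) and at 40.8 to 73.3 in SCR and 83.8 to 108 in G2, so that SCR was at least 5.84-fold and G2 at least 9.83-fold higher than WT. EPHB3 was called higher in G2/WT alone, and EPHB1 and EPHA6, at 5.47 to 65.7 and 11.3 to 40.7, were called in no comparison. EPHB4 made up 52.6% of the EPH receptors per kb in WT, 41.8% in SCR and 62.0% in G2, and EPHB2 20.4%, 16.8% and 3.08%.

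All 3 SLIT genes, whose products are secreted repellents, were tested. SLIT2 was at 1497, 1535 and 1479 in G2, 156, 144 and 143 in SCR and 101 and 130.1 in WT. The G2 libraries were far above the controls, with a fold of 10.1 in G2/SCR (log2 fold change 3.34, SE 0.11, adjusted p = 3.4e-10) and 13.0 in G2/WT (3.70, SE 0.13, adjusted p = 4.4e-10). SLIT2 in SCR/WT was not called (0.36, SE 0.13, adjusted p = 0.043), but it was 0.64 and called higher with libraries scaled to the same total. SLIT3 had the highest level per length and was lower in G2, at 5381, 5576 and 5573, than in SCR (8082, 7685 and 7442) and WT (8863 and 8715). Its difference passed the fold threshold in G2/WT (log2 fold change -0.67, SE 0.06, adjusted p = 1.3e-06) and not in G2/SCR (-0.49, SE 0.05, adjusted p = 7.6e-06). SLIT1, at 40.8 to 101 over all libraries, was lower in G2/SCR. SLIT2 went from 1.65% of the SLIT level per kb in WT and 2.36% in SCR to 25.8% in G2, while the sum of the 3 was 634 ± 5.996 (SD, n = 2) in WT, 564 ± 25.3 (n = 3) in SCR and 527 ± 8.51 (n = 3) in G2.

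Of the SLIT receptors, ROBO1 was at 2428, 2307 and 2372 in G2, 1351, 1239 and 1284 in SCR and 1016 and 1376 in WT. It rose by 0.88 in G2/SCR (SE 0.10, adjusted p = 1.2e-05) and by 1.00 in G2/WT (SE 0.11, adjusted p = 1e-05), with overlapping controls. ROBO2, its neighbour at a gap of 0.947 Mb on chromosome 3, was instead high in SCR, at 1044, 1158 and 976, against 255, 280.3 and 275 in G2 and 196 and 287 in WT. On the log2 scale it differed by 2.15 in SCR/WT (SE 0.15, adjusted p = 1.2e-06) and -1.97 in G2/SCR (SE 0.13, adjusted p = 1.5e-07), while G2/WT was not called (0.19, 95% interval -0.14 to 0.51). ROBO3, which modulates midline crossing, ran from 536 to 709 over all libraries and was not called.

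Netrins came next. NTN1, the classical netrin, had at most 5.29 in any library, and the summed level of the 6 genes per kb was 140.0 ± 30.3 (SD, n = 3) in G2, 338 ± 12.2 (n = 3) in SCR and 119 ± 22.9 (n = 2) in WT. NTNG2, a GPI-anchored netrin that acts at synapses through LRRC4 proteins, made up 80.9% of that level in SCR and 36.8% in G2, at 1410.4, 1333 and 1397 in SCR, 236, 262 and 282 in G2 and 219.8 and 136 in WT. SCR stood above both other lines, with a log2 fold change of 2.99 in SCR/WT (SE 0.17, adjusted p = 2.4e-07) and -2.41 in G2/SCR (SE 0.15, adjusted p = 7.3e-08). NTNG2 in G2/WT was just under the fold threshold (0.58, SE 0.17, adjusted p = 0.012). It was called higher there with libraries scaled to the same total or by TMM, and without G2 replicate 1 or WT replicate 1. NTN4, a laminin-related netrin, was called higher in both G2 comparisons, with 79.0 to 150.4 in G2, 7.51 to 35.7 in SCR and 3.72 to 11.9 in WT. NTNG1 was called higher and NTN3 lower in G2/WT and SCR/WT, and NTN5, at 8.47 to 33.5, was not called.

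Of the netrin receptors, UNC5A, which mediates repulsion, had the lowest log2 fold change of the 64 in both G2 comparisons. It was at 58.3, 58.0 and 53.7 in G2, 455, 403 and 499 in SCR and 777 and 757 in WT. The groups were separate and fell in steps, with -2.97 in G2/SCR (SE 0.12, adjusted p = 1.5e-09), -3.74 in G2/WT (SE 0.13, adjusted p = 6e-10) and -0.77 in SCR/WT (SE 0.13, adjusted p = 0.0009). UNC5D was lower in G2 as well, at 226, 184 and 237, against 639.9, 584 and 554 in SCR and 493 and 696 in WT (G2/SCR -1.46, SE 0.14, adjusted p = 3.6e-06, and G2/WT -1.45, SE 0.16, adjusted p = 1e-05).

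UNC5C was higher in G2, at 2597, 2431 and 2672, than in SCR (1174, 1189 and 1117) and WT (755 and 1356). It rose on the log2 scale by 1.14 in G2/SCR (SE 0.16, adjusted p = 7.3e-05) and 1.34 in G2/WT (SE 0.18, adjusted p = 4.7e-05), with the 2 WT libraries far apart. UNC5B, by far the most abundant of the 4 per length, held 85.3% to 86.6% of the family per kb in each line and was not called (G2/SCR -0.10, 95% interval -0.23 to 0.04), at 10676 to 11466 in G2, 11352 to 12549 in SCR and 12326 and 14032 in WT. DCC, the attractive netrin receptor, had 80.0 to 99.9 in G2, 84.6 to 142 in SCR and 39.7 and 43.7 in WT, and was called higher in both lines against WT. DRAXIN, a secreted repellent that binds DCC, was at 625, 717 and 667 in G2, 117, 96.7 and 104 in SCR and 57.1 and 60.6 in WT. The 3 groups did not overlap, and DRAXIN rose by 2.65 in G2/SCR (SE 0.13, adjusted p = 8e-09), 3.48 in G2/WT (SE 0.14, adjusted p = 2.2e-09) and 0.84 in SCR/WT (SE 0.14, adjusted p = 0.00092).

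SCR did not always lie on the side of WT. For 6 of the 64 genes SCR/WT was called and G2/SCR was called in the opposite direction (against 5.07% of all genes). NTNG2, ROBO2, NRP2 and SEMA4A were highest in SCR (against 3.08%), and SEMA5B and EFNA5 were lowest there (against 1.99%). These 2 comparisons share the SCR libraries. In the opposite case, 17 of the 64 were called in no comparison, a share that was not computed over all genes. The 13 of these with a mean of at least 100 had 95% intervals of the log2 fold change between -0.61 and 0.68 in G2/SCR. In G2/WT these intervals lay between -0.70 and 0.81. Some of these genes still differed below the fold threshold, such as PLXNA2 in G2/SCR (0.53, 95% interval 0.38 to 0.68).

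Further genes of guidance signalling were summarized from lists of co-receptors and of intracellular effectors. Of 17 co-receptors and adhesion molecules, 15 were tested, and 8 rose and 2 fell in G2/SCR, 7 rose and 3 fell in G2/WT and 6 rose and 2 fell in SCR/WT. Of all genes tested, 15.1% were higher and 11.8% lower in G2/SCR, so the falls there were near the background share. The shares for G2/WT were 17.7% and 12.2%, and for SCR/WT 10.7% and 5.63%. NEO1, a receptor of netrins and RGM proteins, rose from 5872 ± 55.0 in SCR and 5146 ± 685 in WT to 10978 ± 213 in G2 (mean ± SD, n = 3, 2 and 3), G2/SCR being 0.90 on the log2 scale (SE 0.07, adjusted p = 2.9e-07). L1CAM, an adhesion molecule that takes part in SEMA3A signalling, fell from 14068 ± 395 in SCR and 15335 ± 538 in WT to 8062 ± 304 in G2 (-0.80, SE 0.05, adjusted p = 9.1e-08).

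Of 51 intracellular effectors, 48 were tested, and 9 rose and 6 fell in G2/SCR, 12 rose and 5 fell in G2/WT and 5 rose and 1 fell in SCR/WT, with median log2 fold changes of 0.17, 0.16 and 0.09. In either direction 26.9%, 29.9% and 16.3% of all genes were called, so the effectors were near the background share in G2/SCR and not above it in SCR/WT. RRAS, a small GTPase inactivated by plexins, rose from 569 ± 121 in SCR and 773 ± 306 in WT to 3622 ± 189 in G2, G2/SCR being 2.69 on the log2 scale (SE 0.19, adjusted p = 1.8e-07). TRIO, an exchange factor for RAC1 downstream of DCC, rose from 11727 ± 314 in SCR to 23454 ± 731 in G2 (1.00, SE 0.08, adjusted p = 5.8e-07). CRMP1, a collapsin response mediator of SEMA3A signalling, fell from 21935 ± 471 in SCR to 9041 ± 332 in G2 (-1.28, SE 0.05, adjusted p = 9.9e-10), and its relative DPYSL5 fell from 7734 ± 234 to 4064 ± 250.3 (-0.93, SE 0.06, adjusted p = 1.5e-07).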

How the data were processed

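RNA-seq libraries of polyadenylated RNA (3 G2, 3 SCR, 2 WT) were sequenced and processed by the authors, who used STAR for mapping (hg38), featureCounts of Subread 1.5.0 for counting on the FAST DB annotation, and DESeq2 size factors to scale the counts. The deposited signal is this normalized count per gene and library. Strand setting and treatment of multi-mapped reads are not given in the sources used here. Values were whole multiples of a step per library, so read counts were recovered (100% whole within 0.01), except that the step of WT replicate 2 was too near 1 for a check. Because low recovered counts tended to be multiples of 3, the floor of a line was set at 9 recovered counts, about 3 fragments, in each of its libraries. Floors cover counting error only, and bounds were computed against the floor of the group.

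Since normalized values take no count model as the main test, limma 3.58.1 in R 4.3.3 was fitted to log2(normalized count + 1) of all 18947 genes with a mean of at least 10 (1 mean per line, trend on the mean), so fold changes of low genes are understated. Adjusted p-values are Benjamini-Hochberg values of limma over all these genes. Counts recovered for G2 and SCR were also fitted with edgeR 4.0.16 and DESeq2 1.42.0. Lengths per kb are exon unions of GENCODE genes matched by symbol for all 72 genes. The fit was tested on simulated data. Genes named are PRPF40B, the 21 called with the same sign in G2/SCR and G2/WT with a mean of at least 100, the member of each family with the highest mean per kb, the 5 largest differences in SCR/WT with a mean of at least 100, any member at the floor in G2 or in both controls and above it elsewhere (none), and 3 rises and 3 falls among other pathway genes. Other members are given by ranges. Members and lists were chosen with earlier results of these data known.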

Additional observations from a re-analysis of the deposited data

How the results depend on the processing

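Counts of called guidance genes stayed within 1.5 times of those given under each alternative (pseudocounts of 0.5 and 5, no filter or a mean of at least 100, other scalings, no trend, fits of 2 lines, adjusted p, edgeR and DESeq2 on G2/SCR with 36 called by each), except that SCR/WT called 12 at a fold of at least 2. Leaving out 1 library gave 33 to 36 in G2/SCR, 39 to 42 in G2/WT, 20 to 23 in SCR/WT and 16 to 19 specific to G2. Scaling libraries to the same total moved the median of all genes to 0.29 in SCR/WT, 0.19 in G2/WT and -0.10 in G2/SCR (log2), and the calls became 26 higher and 1 lower in SCR/WT, in place of 18 and 5. The replicate numbers did not pair the samples (correlations of same-numbered libraries -0.17 to 0.15). With the replicate block, 35, 40 and 21 were called and 19 were specific to G2.

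Among 1652 values of named genes, 12 changed sign, 19 lost a call and 8 gained one. Of the 19 lost calls, 13 came with the threshold raised to a fold of at least 2, where the estimates are those of the main fit. The cause of the other changes was not tested. With libraries scaled to the same total, the log2 fold change turned to 0.17 for SEMA3F in SCR/WT, 0.21 for PLXNA3 in SCR/WT, 0.092 for SLIT3 in SCR/WT, 0.13 for UNC5B in SCR/WT and 0.19 for SEMA4C in SCR/WT, and UNC5A in SCR/WT and SLIT3 in G2/WT (both -0.49) lost their calls. Leaving out 1 library turned 5 values that were not called with all libraries. SEMA3F in SCR/WT ranged from -0.74 (without WT replicate 1) to 0.53 (without WT replicate 2) and was 0.014 without SCR replicate 2. Without WT replicate 1 and without WT replicate 2, the values were -0.23 and 0.26 for UNC5D in SCR/WT, -0.23 and 0.62 for UNC5C in SCR/WT, -0.093 and 0.35 for ROBO1 in SCR/WT, and -0.088 and 0.46 for ROBO2 in G2/WT. Without SCR replicate 1, UNC5D in SCR/WT was at -0.043. Calls were also lost on leaving out 1 library for SEMA4A in G2/SCR (G2 replicate 1 or SCR replicate 3), SEMA3B in SCR/WT (WT replicate 2), SEMA4G in SCR/WT (SCR replicate 1, SCR replicate 2 or WT replicate 2), SEMA6C in SCR/WT (SCR replicate 3), EPHB3 in G2/WT (G2 replicate 3 or WT replicate 1) and NTN3 in G2/WT and SCR/WT (several libraries). EPHB6 in G2/SCR was called by edgeR and DESeq2. Depth limits values near the floor, as for SEMA3D, NRP1 and EPHB6 in WT.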
